A study of Mus musculus with 4 samples.

Results

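Among lung cells sorted for the leukocyte surface protein CD45, 57 barcodes carried endothelial transcripts, and these are described here. They were found in the 2 libraries made from lungs without tumor. They were selected on their own transcripts, counted as UMIs (unique molecular identifiers, one per captured RNA molecule). A barcode needed 200 or more genes, with mitochondrial UMIs making up no more than 10%. It was taken when Cldn5, Cdh5, Ramp2, Egfl7 and Tmem100 together gave at least 5 UMIs, and when Cd3e, Cd79a, Csf1r and Csf3r, which mark T cells, B cells, macrophages and neutrophils, were all at 0. The rule took 57 of the 13344 cells that passed the quality filter in the series, which has 4 libraries, and of the 9968 that passed in the 2 normal libraries. The first library came from C57BL/6 mice lacking Rab37, a small GTPase of the secretory pathway, and the second from wild-type (WT) C57BL/6 mice. Both sets of mice had received Matrigel without tumor cells, and live CD45+ cells were collected on day 14. The other 2 libraries came from Rab37 KO and WT mice given Lewis lung carcinoma cells in place of Matrigel alone. Each genotype and tissue had 1 library, so no difference between genotypes could be set against replicates. No p-value is given, and every interval is an exact 95% interval that covers counting error only. The ages of the mice, the number pooled per library and the part of Rab37 that was removed are not given in the sources used here.

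Endothelial cells line all blood and lymph vessels. In the mouse lung the capillary bed holds general capillary cells, which carry Gpihbp1, Plvap, Kit and the apelin receptor Aplnr, and aerocytes, large thin cells of the gas-exchange surface that carry Car4, Ednrb and the ligand Apln. Arteries, veins and lymphatics have endothelium of their own. VE-cadherin (Cdh5) and claudin-5 (Cldn5) seal the junctions between these cells, and the receptors Kdr and Tek receive vascular endothelial growth factor and angiopoietin signals. CD45, encoded by Ptprc, belongs to leukocytes and is not a product of vascular endothelium.

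The proximal promoters of 5 genes on which the account turns are shown for orientation. They are the pan-endothelial Cldn5, the aerocyte genes Car4 and Ednrb, and Tek and Edn1. Tek and Edn1 were detected in barcodes richer in general capillary transcripts. They were nearly or wholly missing from 9 KO barcodes richer in aerocyte transcripts. These 9 stayed under the limits set below for transcripts of a second cell type. Each sequence is the 250 bases before the gene's start in RefSeq, on build GRCm38.p6. The windows are chr16:18776597-18776846 on the plus strand for Cldn5, chr11:84957504-84957753 on the plus strand for Car4, chr14:103843702-103843951 on the minus strand for Ednrb, chr4:94739039-94739288 on the plus strand for Tek and chr13:42301226-42301475 on the plus strand for Edn1. Capitals mark matches, on either strand, to CAGGAA, which holds the core letters bound by ETS factors, or to ACAAT, letters bound by SOX factors.
Cldn5: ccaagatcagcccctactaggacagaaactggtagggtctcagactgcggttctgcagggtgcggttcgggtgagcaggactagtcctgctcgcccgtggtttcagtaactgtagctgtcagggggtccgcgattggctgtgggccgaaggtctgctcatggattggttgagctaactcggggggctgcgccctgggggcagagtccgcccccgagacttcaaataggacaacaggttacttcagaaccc
Car4: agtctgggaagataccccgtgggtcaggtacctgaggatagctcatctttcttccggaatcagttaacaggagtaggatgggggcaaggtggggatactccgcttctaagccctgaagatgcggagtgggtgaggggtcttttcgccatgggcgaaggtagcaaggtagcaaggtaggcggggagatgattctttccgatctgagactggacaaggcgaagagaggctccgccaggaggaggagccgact
Ednrb: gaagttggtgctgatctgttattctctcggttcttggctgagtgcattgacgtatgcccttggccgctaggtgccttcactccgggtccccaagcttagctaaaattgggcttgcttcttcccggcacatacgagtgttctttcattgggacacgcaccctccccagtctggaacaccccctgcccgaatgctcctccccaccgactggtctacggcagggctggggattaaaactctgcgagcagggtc
Tek: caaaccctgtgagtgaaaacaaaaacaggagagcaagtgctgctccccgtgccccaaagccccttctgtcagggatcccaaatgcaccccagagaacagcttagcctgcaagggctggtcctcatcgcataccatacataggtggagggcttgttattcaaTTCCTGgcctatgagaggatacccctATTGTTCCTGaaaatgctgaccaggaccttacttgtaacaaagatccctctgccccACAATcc
Edn1: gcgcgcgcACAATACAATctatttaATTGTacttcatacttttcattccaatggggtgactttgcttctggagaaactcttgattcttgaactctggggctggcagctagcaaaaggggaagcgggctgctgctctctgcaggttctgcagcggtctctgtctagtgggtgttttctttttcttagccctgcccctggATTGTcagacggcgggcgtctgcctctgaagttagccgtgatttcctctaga
Tek held 2 matches to CAGGAA and 2 to ACAAT, with 1 match of each sharing bases. Edn1 held 4 matches to ACAAT and none to CAGGAA, and Cldn5, Car4 and Ednrb held neither run of letters in these windows. Of all 32851 RefSeq promoter windows of this length, 25.7% held CAGGAA and 27.7% held ACAAT. The matches describe the letters and say nothing of binding.

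The KO library gave 44 of the barcodes among 4726 passing cells, a share of 0.931% (0.677 to 1.25%, Clopper-Pearson). The WT library gave 13 among 5242, a share of 0.248% (0.132 to 0.424%). The share in the KO library was 3.75 times that in the WT library, with a counting interval of 1.99 to 7.60. How many non-leukocytes pass a sort can differ from sort to sort, and with 1 sort of each genotype this cannot be told apart from the genotype. In other cells, Rab37 itself had 13 UMIs in the KO library and 313 in the WT library (0.377 and 8.59 CPM, counts scaled to a total of 1000000 UMIs). In the endothelial barcodes it had 0 and 1 UMIs, so the gene was at the floor of detection in them in either genotype. The 1 UMI lay in a WT barcode of 15502 UMIs that had no Cldn5, Cdh5 or Egfl7. Both libraries held cells with Xist UMIs and cells with UMIs of Y-linked genes, so each contained cells of female and male mice. Of the endothelial barcodes with UMIs of one kind only, 18 were Xist-positive and 12 Y-positive in the KO library, against 7 and 1 in the WT library.

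The barcodes differed widely in depth. Their UMIs ran from 564 to 37782 in the KO library (median 4272) and from 1305 to 24467 in the WT library (median 3386), against medians of 5524 and 5178 over all passing cells of the KO and WT libraries. Together they held 290032 UMIs in the KO library and 102316 in the WT library. All 5 markers were present in 32 of the 44 KO barcodes and in 8 of the 13 WT barcodes. Ptprc was at 0 in 40 KO and 11 WT barcodes, although the cells had been sorted for its product. Just inside the limit, with 5 or 6 marker UMIs, lay 8 KO barcodes and 1 WT barcode, and just outside it, with 3 or 4, lay 5 KO and 8 WT barcodes. Their pan-endothelial transcripts made up 0.125% and 0.147% of UMIs just inside the limit, and 0.194% and 0.121% just outside it. The KO barcodes just inside were unlike each other. The 3 without Cldn5, Cdh5 or Egfl7, of 9414 to 16880 UMIs, had 0.0178 to 0.0406%, and the other 5, of 564 to 667 UMIs, had 0.645 to 2.66%. The WT barcode just inside also had none of these genes. A further 15 KO and 8 WT barcodes had enough marker UMIs but also carried an exclusion gene. Those were deep, with medians of 17414 and 15968 UMIs, and 14 and 7 of them held Ptprc. The normal libraries shared 8 cell barcodes, none of them among the 57.

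The 57 barcodes were not of 1 kind. In 39 KO and 11 WT barcodes at least 1 of Cldn5, Cdh5 and Egfl7 was present. The remaining 5 KO and 2 WT barcodes had none of these genes and met the rule through Ramp2 and Tmem100 alone. These 7 barcodes, of 9414 to 16880 UMIs, went against the endothelial label. Transcripts of a 10-gene fibroblast list made up 1.85 to 3.1% of their UMIs in the KO library and 0.606 to 2.92% in the WT library, whereas transcripts of 22 pan-endothelial markers reached at most 0.241% in the KO ones and 0.147% in the WT ones. Their leading genes were Dcn, the matrix proteoglycan decorin, Gsn, Igfbp5, Mt1, C3, Ccl2 and Pi16. Dcn had 1299 UMIs in these 7 barcodes and 0 in the unmixed capillary barcodes. The WT one of 15502 UMIs also held 17 UMIs from the T cell list and 16 from the leukocyte common list. All 7 are called the barcodes without Cldn5, Cdh5 or Egfl7 below. The endothelial barcodes still include them where no smaller group is named, and they held 22.55% of the KO and 27.79% of the WT UMIs. This grouping, like the capillary groups that follow, was made after the values were seen and receives no test.

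Another 8 KO and 2 WT barcodes had endothelial transcripts together with transcripts from a list of another cell type, and are called mixed. Such a list had to give at least 15 UMIs and at least 0.1% of the barcode's UMIs. Shallow barcodes can hardly reach 15 UMIs, so being unmixed partly reflects low depth. Median UMIs were 11934 in the 8 mixed and 3003 in the 31 unmixed KO barcodes, and 17070 and 2850 in the 2 and 9 WT ones. The KO barcode with the most UMIs, 37782, and another of 14495 UMIs had 151 and 107 UMIs from the fibroblast list. Neither held Dcn, the leading gene of the barcodes without Cldn5, Cdh5 or Egfl7. Inmt gave 69 and 41 of these UMIs, and Col1a2 gave 4 and 16. A KO barcode of 23500 UMIs held all 341 UMIs of Acta2 and all 305 of Tagln, both smooth muscle genes. A KO barcode of 13093 UMIs held 495 of the 766 UMIs of MHC class II genes in that library. A pair of KO barcodes carried natural killer cell transcripts such as Gzma, 1 carried platelet transcripts, and 1 KO and 1 WT barcode carried transcripts of alveolar macrophages. The deepest WT barcode, of 24467 UMIs, carried T cell transcripts, among them 14 UMIs of Il7r. Every barcode with Ptprc UMIs was a mixed one that carried leukocyte transcripts. The doublet caller Scrublet marked 113 KO cells (2.39%) and 248 WT cells (4.73%), with none of the 57 among them. The part of joint droplets, attached cells and free RNA in these barcodes was not tested.

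**Figure D1:**
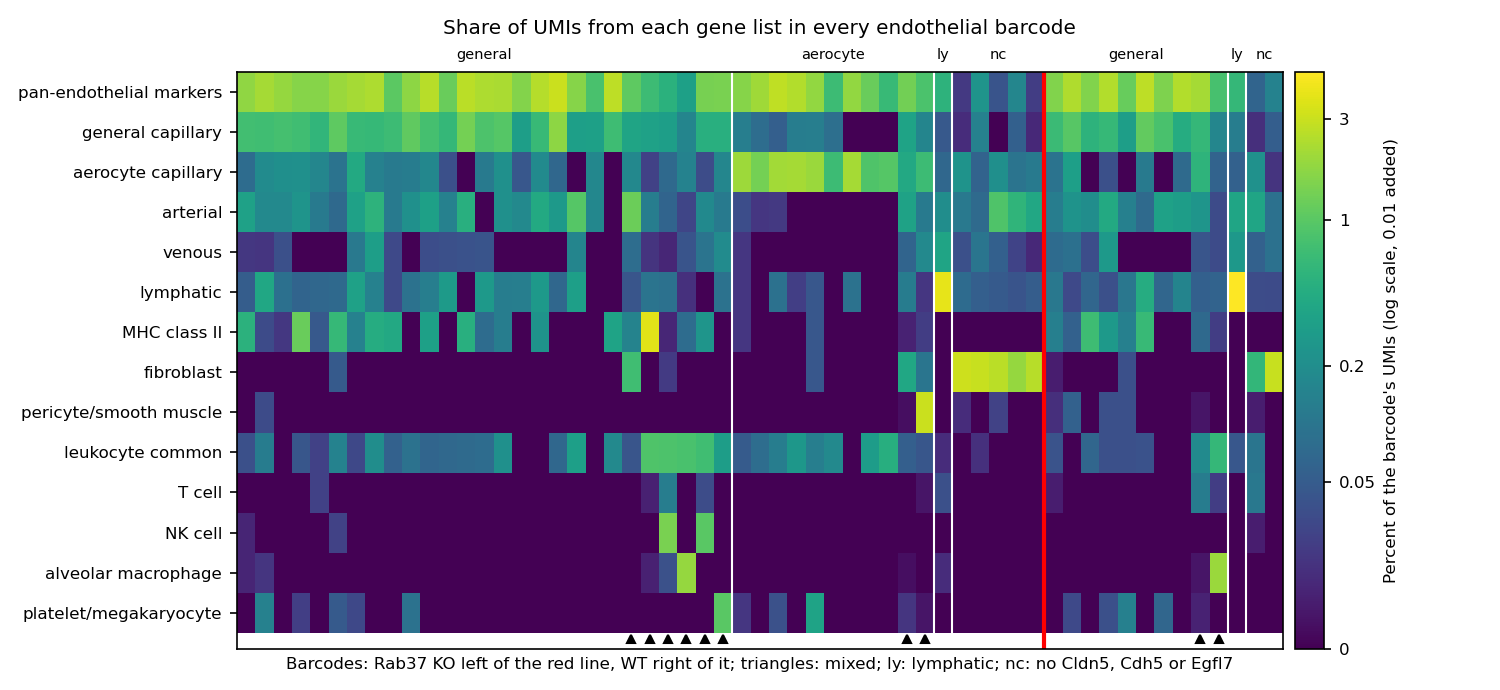
Each column is 1 of the 57 barcodes, with the 44 Rab37 KO barcodes left of the red line and the 13 WT barcodes right of it, and each row is a gene list. Color gives the percent of the barcode's UMIs on a log scale. The block labelled aerocyte is present in the KO library and missing from the WT library, and the 7 barcodes marked nc are bright for the fibroblast list.

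Against the other cells of the same library, the endothelial barcodes were rich in vascular transcripts. The pan-endothelial list summed to 11051 CPM in the KO barcodes and 343 CPM in the other KO cells, and to 12364 CPM in the WT barcodes and 334 CPM in the other WT cells. All 21 measured genes of the list (at least 20 UMIs over the barcodes of both libraries) were at least 2-fold higher in both libraries, where 29.1% of all 3557 measured genes were. Since transcripts of these cells chose the barcodes, this is a description. Ranked by the smaller of the ratios in both libraries, the leading gene was Ptprb, the phosphatase VE-PTP that restrains Tek, at 1224 CPM in the KO barcodes and 3.74 CPM in other KO cells, and at 1300 CPM in the WT barcodes and 4.06 CPM in other WT cells. Tek, Plvap, which forms the diaphragms of caveolae, and Gpihbp1, which brings lipoprotein lipase to the capillary surface, followed. All 5 rule genes were among the 25 leading genes. The water channel gene Aqp1 closed the 25 leading genes with ratios of 106 in the KO library and 386 in the WT library.

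**Figure D2:**
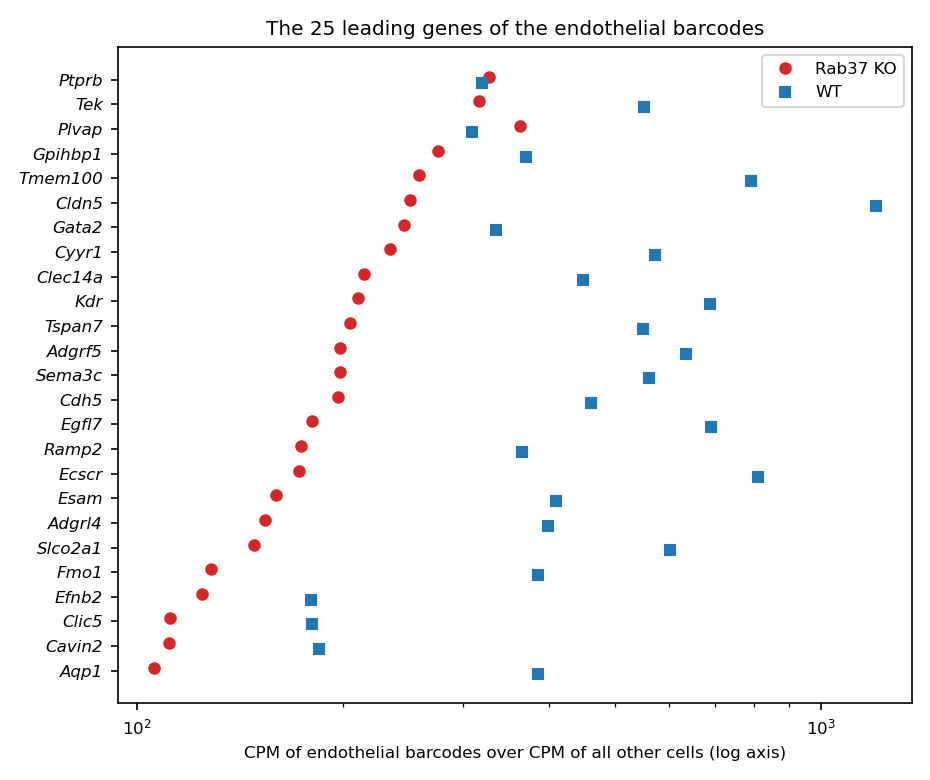
The horizontal axis (log scale) gives the ratio of CPM in the endothelial barcodes to CPM in all other cells, for the 25 genes that lead in the smaller of both libraries. Circles are the Rab37 KO library and squares the WT library, and all points lie above 100, from 106 for Aqp1 to 1204 for Cldn5.

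Presence per barcode is a description as well, since the rule took barcodes with endothelial transcripts and left out those with Cd3e. Cldn5, a rule gene, was found in 37 of 44 KO barcodes and 11 of 13 WT barcodes. Plvap, which the rule did not use, was found in 63.6% of KO barcodes and 92.3% of WT barcodes, against 0.559% of Cd3e-positive T cells in the KO library and 0.398% in the WT library. After every cell was thinned to 1500 UMIs, which left 36 KO and 11 WT barcodes, Plvap was found in 58.3% of KO and 45.5% of WT barcodes, against 0.140% and 0.199% of the T cells. The rule also required 0 UMIs of 4 leukocyte genes, so the leukocyte levels that follow were shaped by the choice of barcodes. A list of 12 leukocyte genes summed to 1579 CPM in the KO barcodes and 10626 CPM in the other KO cells, and to 1319 CPM in the WT barcodes and 10321 CPM in the other WT cells. B cell transcripts were at 13.8 and 29.3 CPM in the KO and WT barcodes, against 6654 and 11305 CPM in the other cells of each library. Cell cycle genes were scarce, with 3 of 15 measured and a summed 559 CPM in the KO barcodes and 596 CPM in the WT barcodes.

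The genes with the highest levels were mostly those of every cell: Malat1, a nuclear noncoding RNA, stood at 26256 CPM in the KO barcodes and 16361 CPM in the WT barcodes, and Tmsb4x, which binds actin, at 7292 and 5933 CPM. Stress-induced transcripts were among them too. Hspa1a, an inducible heat shock protein, stood at 3655 CPM in the KO barcodes and 4164 CPM in the WT barcodes. The immediate early list, which tissue digestion is known to raise, summed to 28135 CPM in the KO barcodes and 15997 CPM in the other KO cells, and to 32175 CPM in the WT barcodes and 16378 CPM in the other WT cells. Gsn and Dcn, also high, came from few barcodes: Dcn was found in 5 KO and 2 WT barcodes.

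Capillary lists split the barcodes that held Cldn5, Cdh5 or Egfl7. Each was placed by whether the 10 aerocyte genes or the 9 general capillary genes gave it more UMIs. It was called lymphatic where the lymphatic list exceeded the general, aerocyte, arterial and venous lists. Arteries and veins had no group of their own, so general-richer barcodes can include arterial ones. The mixed general-richer KO barcode of 14495 UMIs had 178 arterial, 53 general and 25 aerocyte UMIs. An unmixed one of 624 UMIs had 6, 2 and 0. Another, of 601 UMIs, was placed on 2 general against 1 aerocyte UMIs. In the KO library 27 of 39 (69.2%) were general-richer, 11 of 39 (28.2%, 15 to 44.9%) were aerocyte-richer and 1 was lymphatic. In the WT library 10 of 11 were general-richer, 0 of 11 aerocyte-richer, which allows a share of up to 28.5%, and 1 was lymphatic. With the mixed barcodes left out, 9 of 31 KO barcodes (29.0%, 14.2 to 48.0%) and 0 of 9 WT barcodes were aerocyte-richer. Here 0 of 9 allows up to 33.6%. These counting intervals overlapped. No test was made, and with 1 library per genotype a difference in the aerocyte share could not be set against replicates. The barcodes nearest the division, with 40 to 60% of their capillary UMIs from the aerocyte list, numbered 3 in the KO library and 1 in the WT library. All were mixed barcodes, apart from the lymphatic barcode of the KO library.

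Among unmixed KO barcodes the groups did not overlap on the lists that define them, a separation largely built in by the placing. The aerocyte list took 0.702 to 2.17% of UMIs in the 9 aerocyte-richer barcodes and 0 to 0.426% in the 21 general-richer ones. The general list took 0 to 0.133% in the aerocyte-richer and 0.312 to 1.74% in the general-richer barcodes. The mixed aerocyte-richer barcode of 37782 UMIs fell inside the general-richer range on both lists, with 0.413% aerocyte and 0.357% general transcripts. In the 8 unmixed general-richer barcodes of the WT library the general list took 0.318 to 1.11% and the aerocyte list 0 to 0.325%. Aerocyte transcripts were still present in the WT library, but most came from 1 barcode. The deepest WT barcode, a mixed one, gave 138 of the 215 WT aerocyte-list UMIs (64.2%), with 22 of 26 for Car4, 14 of 15 for Ednrb and all 15 for Fibin. It had 0.564% aerocyte and 0.617% general transcripts.

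**Figure D3:**
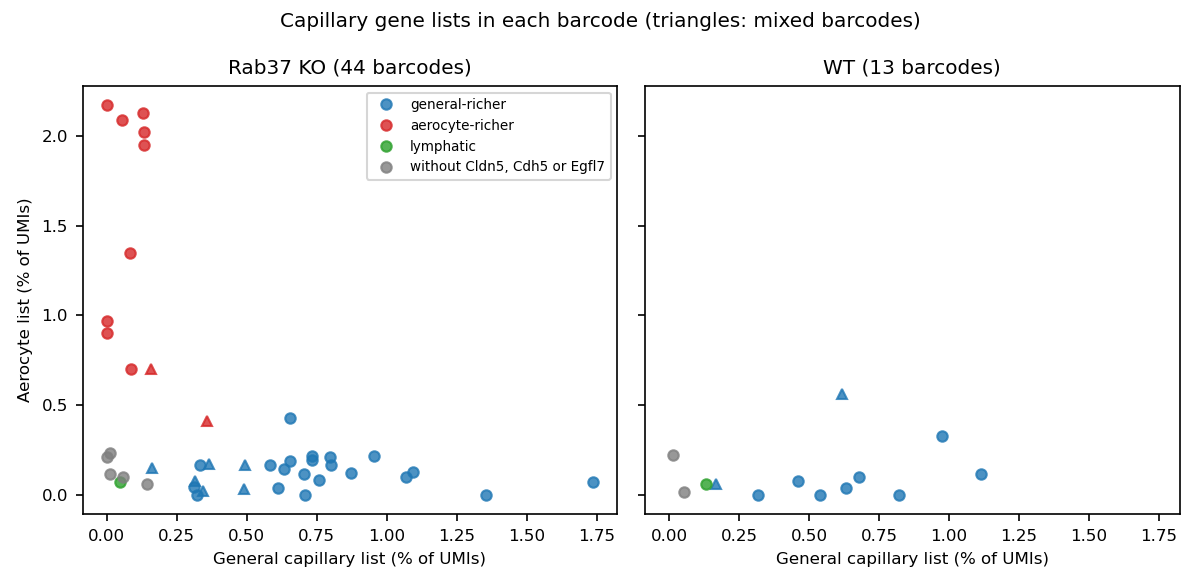
Each point is a barcode, with the percent of its UMIs from the general capillary list on the horizontal axis and from the aerocyte list on the vertical axis, for Rab37 KO (left) and WT (right). In the KO panel the 9 unmixed aerocyte-richer barcodes, at 0.702% and above, stand apart from the general-richer ones, and the WT panel has no such arm. The lists on the axes placed the barcodes. A mixed aerocyte-richer KO barcode (triangle), at 0.357% general and 0.413% aerocyte, lies within the general-richer range.

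Within the KO library, the 9 aerocyte-richer barcodes (27920 UMIs) were compared with the 21 general-richer ones (70757 UMIs), all unmixed. Of 827 genes with at least 20 UMIs, 114 (13.8%) were at least 2-fold higher and 188 (22.7%) at least 2-fold lower in the aerocyte-richer barcodes. The genes named in this comparison were chosen after their values were seen, and those of the zone lists placed the barcodes. Ednrb, the endothelin B receptor, was found in 7 of 9 aerocyte-richer barcodes (0 to 13 UMIs, median 4) and in 1 of 21 general-richer ones, at 1791 and 14.1 CPM. Car4, a carbonic anhydrase on the cell surface, was found in 8 of 9 (0 to 17 UMIs) and in 9 of 21 (0 to 4 UMIs), at 2543 and 297 CPM. Both genes were therefore seen in most aerocyte-richer barcodes, and only Ednrb was nearly confined to them. Fibin, at 1970 and 42.4 CPM, and Igfbp7, at 6017 and 156 CPM, were higher in the aerocyte-richer barcodes by 46.5-fold (15.1 to 232) and 38.7-fold (21.1 to 79.0). Tbx2, a T-box transcription factor, had 21 UMIs in the aerocyte-richer and 0 in the general-richer barcodes, so it was at least 17.7-fold higher by the limit of 3 counts over the group.

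Genes outside the zone lists also differed between the groups in summed UMIs. Kdr, the main receptor for vascular endothelial growth factor A, stood at 3223 CPM in the aerocyte-richer barcodes and 396 CPM in the general-richer ones. The ratio was 8.15 (5.28 to 12.9). Single barcodes overlapped. Kdr was found in 7 of 9 aerocyte-richer barcodes (0 to 36 UMIs) and in 14 of 21 general-richer ones (0 to 7 UMIs). Emp2, a tetraspan membrane protein, stood at 6698 and 791 CPM (8.46-fold, 6.25 to 11.6). The coreceptor Nrp1 (4.89-fold), the T-box factor Tbx3 (7.60-fold), the Kit ligand Kitl (5.07-fold), the adhesion protein Icam2 (4.65-fold) and Cd34 (5.83-fold) were higher as well. Kit, the receptor of Kitl, had 0 UMIs in the aerocyte-richer barcodes and 33 in the general-richer ones, but it belongs to the general capillary list that placed the barcodes.

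The limit of 20 UMIs over both groups admitted genes of the general-richer barcodes at a lower CPM, since these held more UMIs, so the counts in each direction cannot be compared. Among the genes lower in the aerocyte-richer barcodes, Ptprb was found in 1 of 9 aerocyte-richer and in 21 of 21 general-richer barcodes, at 107 and 2728 CPM. Tek, the angiopoietin receptor that Ptprb acts on, had 1 UMI in the aerocyte-richer and 47 in the general-richer barcodes, a ratio of 0.0539 (0.00134 to 0.316). With the mixed barcodes kept, the 11 aerocyte-richer KO barcodes held 14 UMIs of Tek in 3 barcodes and 13 of Edn1 in 2, at 157 and 146 CPM. Ptprb then had 82 UMIs in 3 barcodes, at 919 CPM. The mixed ones of 37782 and 23500 UMIs held 55 and 24 of these. Flt1, a decoy receptor for vascular endothelial growth factor, was lower in the aerocyte-richer barcodes too, at 645 and 1371 CPM. In the unmixed barcodes the vascular endothelial growth factor receptors, and Tek with its phosphatase Ptprb, were therefore unevenly divided. Kdr and Nrp1 were high on the aerocyte side and Tek, Ptprb and Flt1 on the other. Edn1, which encodes the ligand of Ednrb, had 0 UMIs in the aerocyte-richer and 52 in the general-richer barcodes, at least 6.84-fold lower. Bmp6 had 0 and 24 UMIs, and Lyve1, a hyaluronan receptor best known from lymphatics, had 107 and 1286 CPM.

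Several lists lay wholly on one side of the division and others did not, with the same limit on which genes were measured. Of all 827 measured genes, 22.7% were lower and 13.8% higher in the aerocyte-richer barcodes. All 4 measured arterial genes (Sox17, Efnb2, Hey1 and Cxcl12) and all 3 measured Notch pathway genes (Notch1, Hey1 and Hes1) were at least 2-fold lower in the aerocyte-richer barcodes. Efnb2, an arterial ephrin, stood at 143 CPM in these and 1060 CPM in the general-richer barcodes. All 4 measured MHC class II genes were lower, with a list sum of 71.6 CPM in the aerocyte-richer and 3067 CPM in the general-richer barcodes. Class II transcripts, which present antigen to CD4 T cells, were found in 2 of 9 aerocyte-richer and 15 of 21 general-richer KO barcodes, and in 6 of 8 general-richer WT barcodes. Of 16 measured immediate early genes 7 were lower and none higher, among them Atf3 at 179 and 2827 CPM and Socs3 with 0 and 76 UMIs. Jun was at 3761 and 3477 CPM. An aerocyte-richer barcode of 6014 UMIs held 215 of the 448 immediate early UMIs of the 9. Of 9 measured junction genes only Tjp1 passed 2-fold, at 287 and 579 CPM, and Pecam1 stood at 1361 and 1230 CPM (ratio 1.11, 0.736 to 1.64). Calcrl, the adrenomedullin receptor, was at a ratio of 1.09 (0.857 to 1.39), and the shear-responsive factor Klf2 at 1.03 (0.762 to 1.37). Of the leukocyte common genes, the 1 measured did not pass 2-fold. Their list took 0 to 0.48% of UMIs in the aerocyte-richer and 0 to 0.32% in the general-richer barcodes.

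**Figure D4:**
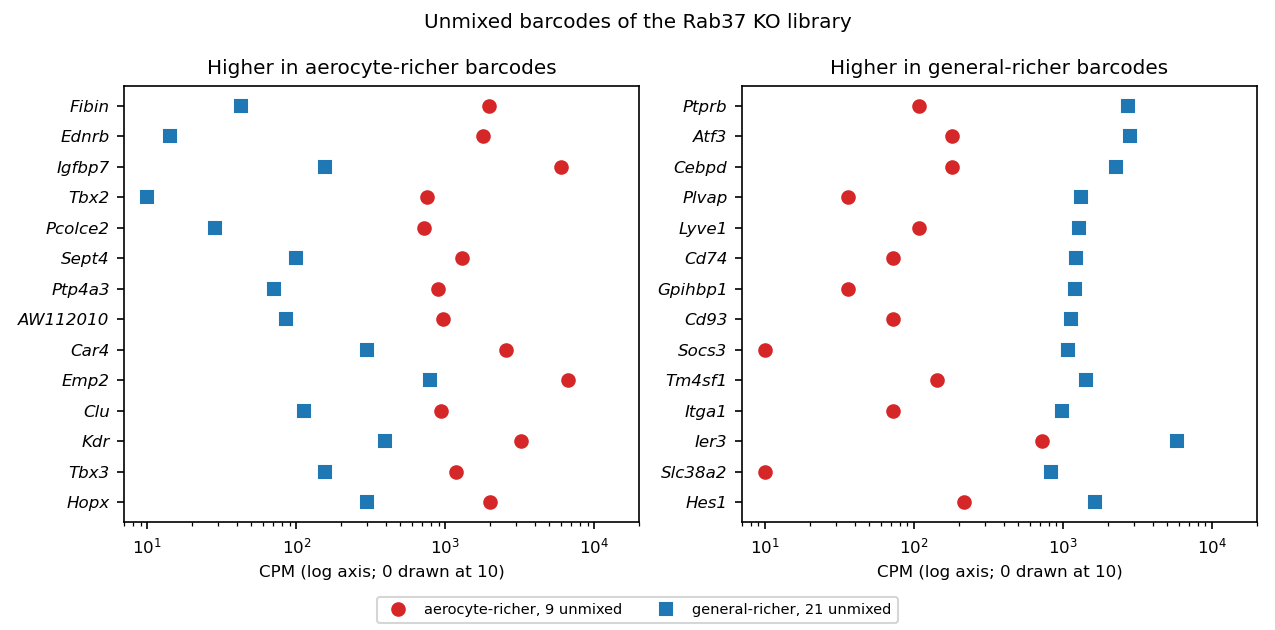
CPM (log axis, with 0 drawn at 10) in the 9 unmixed aerocyte-richer (circles) and the 21 unmixed general-richer barcodes (squares) of the Rab37 KO library, for the 14 genes furthest apart in each direction. Ednrb, at 1791 and 14.1 CPM, and Ptprb, at 107 and 2728 CPM, show the size of the division.

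The lymphatic barcodes, 1 of 8507 UMIs in the KO library and 1 of 6878 UMIs in the WT library, had 3.93% and 7.07% of their UMIs from the lymphatic list. Among the 57 barcodes they held every UMI of Ccl21a, the chemokine that draws dendritic cells and T cells into lymphatics, with 62 in the KO and 405 in the WT barcode. Prox1, the lymphatic master regulator, had 12 UMIs in the KO lymphatic barcode and 7 in the WT one, and Mmrn1 had 94 and 18. The venous and arterial lists were unevenly represented. Ackr1, a marker of venules, had 5 UMIs in all, each in a barcode without Cldn5, Cdh5 or Egfl7, Selp had 2 UMIs, and Gja5, a connexin of arteries, had 4 UMIs in the KO barcodes and 1 in the WT barcodes. Sele, an adhesion receptor of inflamed vessels, was at 0 in both. Other genes of these lists were found in many barcodes. Efnb2 had 151 UMIs in 26 KO barcodes and 55 in 8 WT barcodes. Gja4, another arterial connexin, had 17 UMIs in 10 KO and 13 in 6 WT barcodes, and Vwf, von Willebrand factor on the venous list, had 32 UMIs in 11 KO and 17 in 5 WT barcodes. Mgp, a matrix protein on the arterial list, was found in fewer, with 385 UMIs in 7 KO and 55 in 3 WT barcodes. Of these, 168 and 53 lay in barcodes without Cldn5, Cdh5 or Egfl7. Mixed KO barcodes held 142, 63 and 11, and the unmixed capillary barcodes of both libraries together held 3.

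Several vascular lists were set against other cells over all 57 barcodes, where 29.1% of all measured genes were at least 2-fold higher in both libraries. In the BMP9 pathway, whose receptor ALK1 (Acvrl1) works with endoglin (Eng) and Bmpr2, 9 of 14 measured genes were at least 2-fold above other cells in both libraries. Acvrl1 stood at 572 CPM in the KO barcodes and 635 CPM in the WT barcodes, and Bmpr2 at 1358 and 1261 CPM. Calcrl and its partner Ramp2, which together bind adrenomedullin, stood at 1807 and 1352 CPM in the KO barcodes and at 1769 and 1417 CPM in the WT barcodes. All 12 measured basement membrane genes were higher than in other cells in both libraries, among them Col4a1, a chain of collagen IV, at 628 CPM in the KO barcodes and 420 CPM in the WT barcodes. However, 38.1% of the KO and 50.2% of the WT UMIs of this list lay in the 7 barcodes without Cldn5, Cdh5 or Egfl7. Over the other 50 barcodes 9 of 10 measured basement membrane genes were higher, where 30.9% of 2845 measured genes were, and the list summed to 3779 CPM in the KO and 2910 CPM in the WT barcodes, against 394 and 299 CPM in other cells. The transcription factor Epas1 stood at 1838 and 2111 CPM, and Foxf1, which lung capillaries need, at 376 and 645 CPM in KO and WT barcodes. The scavenger receptor Cd36 stood at 1452 and 1847 CPM, and thrombomodulin (Thbd), which restrains clotting, at 676 and 655 CPM. Of the MHC class I genes, which every nucleated cell carries, 0 of 11 measured were at least 2-fold above other cells. Spp1, which encodes osteopontin, had 2 UMIs in the KO barcodes and 3 in the WT barcodes, all in mixed barcodes that carried leukocyte transcripts. Itgb1, a chain of osteopontin receptors, stood at 472 CPM in the KO and 489 CPM in the WT barcodes.

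Between genotypes, most of the largest ratios came from single barcodes. Of 3557 measured genes, 430 (12.1%) were at least 2-fold higher and 144 (4.05%) at least 2-fold lower in the KO than in the WT barcodes. Over all barcodes none of the 21 pan-endothelial, 7 general capillary or 9 vascular endothelial growth factor and angiopoietin genes measured passed 2-fold either way. Pecam1, an adhesion protein of endothelial junctions that the rule did not use, stood at 717 CPM in the KO barcodes and 577 CPM in the WT barcodes (ratio 1.24, 0.927 to 1.69), and Ptprb was at a ratio of 0.942 (0.769 to 1.16). In the unmixed general-richer barcodes, 21 KO and 8 WT, the largest unmixed group of one kind in both libraries, 73 of 884 measured genes (8.26%) were higher and 43 (4.86%) lower. There 2 of 19 measured pan-endothelial genes passed 2-fold higher, Tie1 (2.01, 0.810 to 5.98) and Flt1, which were also the 2 of 7 measured vascular endothelial growth factor and angiopoietin genes. Of 7 general capillary genes, Hilpda passed, a gene that helped to place the barcodes. Plvap was at a ratio of 0.919 (0.641 to 1.34). A single WT barcode of 15469 UMIs held 47.1% of the UMIs of the 8 WT barcodes in this comparison. Without it, 92 of 730 measured genes (12.6%) were higher and 49 (6.71%) lower, Tie1 was at 1.28 (0.483 to 4.26) and Plvap at 0.738 (0.487 to 1.15). The rule genes had chosen the barcodes in both libraries, so their levels are only described. Cldn5 stood at 1883 CPM in the KO barcodes and 1984 CPM in the WT barcodes, and Egfl7 was at a ratio of 0.663 over all barcodes.

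Of the 24 genes with the most extreme ratios, 12 each way, 20 had over 50% of the higher library's UMIs in 1 barcode, and the 4 others were Gpx3, Irf1, Ankrd33b and Rp9. Over the barcodes with Cldn5, Cdh5 or Egfl7, 11.7% of measured genes lay 2-fold or more above WT in KO and 4.32% below, and over the unmixed ones 10.4% were higher and 5.47% lower. Ccl5, a chemokine of NK and T cells, had 410 UMIs in the KO barcodes and 2 in the WT barcodes, and 75.4% of the KO UMIs lay in 1 barcode. Acta2 and Tagln, with 0 UMIs in the WT barcodes, lay wholly in 1 KO barcode. Ccl21a was at 0.0540 of the WT level, all of it from the lymphatic barcode of each library, and Cxcl10, an interferon-induced chemokine, was at 0.0938, with 92.4% of the WT UMIs in 1 barcode; without the barcodes lacking Cldn5, Cdh5 and Egfl7 its ratio was 1.12. The MHC class II list was higher in the KO barcodes for 4 of 4 measured genes, at 2641 CPM in the KO barcodes and 909 CPM in the WT barcodes. In the unmixed general-richer barcodes 1 of the 4 passed 2-fold, with list sums of 3067 CPM in the KO and 2221 CPM in the WT barcodes, and 2989 CPM in WT without the barcode of 15469 UMIs, where the median log2 ratio was -0.069. With no exclusion genes applied, the list's median log2 ratio turned to -0.62, against 1.77 over the 57 barcodes. The aerocyte list, by which barcodes had been placed, was higher for 3 of 9 measured genes and summed to 3748 CPM in the KO and 2101 CPM in the WT barcodes.

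For some genes the UMIs were spread over more barcodes. Gpx3, a secreted glutathione peroxidase, had 199 UMIs in 13 KO barcodes and 1 UMI in the WT barcodes, but 1 UMI in the general-richer barcodes of each library. Irf1, a transcription factor of the interferon response, had 36 UMIs in 19 KO barcodes and 39 UMIs in 8 WT barcodes, at 124 and 381 CPM (ratio 0.326, 0.201 to 0.526), and was at 0.348 (0.166 to 0.716) in the general-richer barcodes, or 0.461 (0.184 to 1.26) without the WT barcode of 15469 UMIs. Ankrd33b stood at 107 and 264 CPM (0.405, 0.234 to 0.705) over 16 KO and 9 WT barcodes. H2-Q6, a class I gene of a family of near-identical copies, among which reads may be misplaced, stood at 162 and 362 CPM (0.448, 0.285 to 0.709). In the general-richer barcodes Hilpda, a lipid droplet protein induced by hypoxia, stood at 1357 CPM in KO and 304 CPM in WT (4.46-fold, 2.32 to 9.60), and Flt1 at 1371 and 609 CPM (2.25-fold, 1.38 to 3.85). Without that WT barcode Hilpda was at 2.62-fold (1.33 to 5.91) and Flt1 at 1.70-fold (0.968 to 3.23). Over all barcodes the ratio for Flt1 was 1.09 (0.810 to 1.5). Id1, a target of BMP signals, stood at 331 and 117 CPM over all barcodes (2.82-fold, 1.54 to 5.65). In the general-richer barcodes it was at 3.1-fold (1.31 to 8.94) with that WT barcode and at 1.64-fold (0.691 to 4.73) without it.

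The immediate early list was lower in the KO than in the WT general-richer barcodes, with most of the WT UMIs in 1 barcode. Its median log2 ratio was -0.57 over 17 measured genes, against -0.04 over all genes measured in those barcodes, and the list summed to 35021 CPM in KO and 47736 CPM in WT barcodes. The WT barcode of 15469 UMIs held 885 of the 1569 WT UMIs of the list (56.4%), and without it the WT sum was 39313 CPM and the median -0.05 over 16 genes. With all barcodes 2 genes passed 2-fold lower and none higher: Fos at 919 and 2373 CPM (0.387, 0.274 to 0.545) and Egr1 at 127 and 700 CPM (0.182, 0.0740 to 0.408). Without that WT barcode neither passed, with Fos at 1.07 (0.601 to 2.01) and Egr1 at 1.11 (0.229 to 10.5), while 1 other gene passed 2-fold in each direction. Over all barcodes none of the 18 passed 2-fold, and Egr1 was then at 1.36 (1.06 to 1.77). The leukocyte common list summed to 721 CPM in KO and 335 CPM in WT in the general-richer barcodes, and its part in these differences was not tested.

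**Figure D5:**
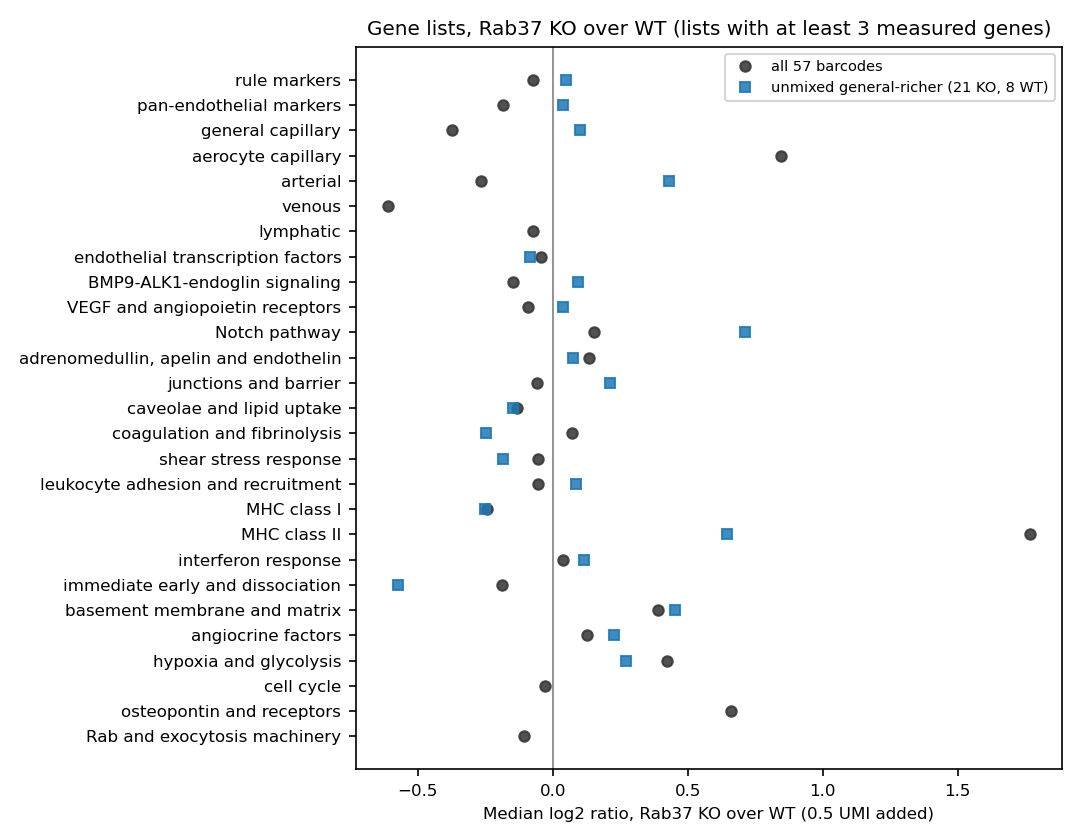
Median log2 ratio of Rab37 KO over WT for each gene list with at least 3 measured genes, with 0.5 UMI added to each sum, over all 57 barcodes (circles) and over the unmixed general-richer barcodes (squares, 21 KO and 8 WT). The MHC class II point lies at 1.77 over all barcodes and at 0.65 in the general-richer ones, and most vascular lists lie close to 0.

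In the tumor libraries the same rule found 1 barcode among 2729 cells of Rab37 KO tumors (0.0366%), with 591 UMIs of which 8 were pan-endothelial. It found 0 among 647 cells of WT tumors, which allows a share of up to 0.5685%. The endothelial barcodes of tumors could therefore not be described.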

How the data were processed

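Live CD45+ lung cells were profiled with droplet 3' RNA sequencing in 4 libraries, 1 per genotype and tissue. The deposited matrices hold raw UMI counts for 31053 genes, per the file headers. The headers name software version 3.0.1 in the normal and 3.1.0 in the tumor libraries, and mm10 is named in the submitters' processing notes. No aligner is named in the labels or headers. The deposited barcodes numbered 5063 and 5594 in the normal KO and WT libraries, with 34750859 and 36525943 UMIs after filtering, and 3065 and 674 in the tumor KO and WT libraries.

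UMI counts were summed over the chosen barcodes of a library and scaled to 1000000 (CPM), without length scaling. Exact intervals at the 95% level were Poisson (CPM), conditional binomial (ratios) or Clopper-Pearson (shares). In bounds on ratios a count of 0 was given a limit of 3 counts. Cells were thinned to 1500 UMIs for shares. A gene was measured with at least 20 UMIs over both groups and was called past 2-fold; list medians add 0.5 UMI. With 1 library per group no test across libraries was made, and the calculation was tested on simulated data. Named genes were the 5 rule and 4 exclusion markers with Ptprc, Rab37 and Spp1, the 25 leading genes over other cells (at least 300 CPM), the 20 highest, the 12 with the largest KO/WT ratio each way (at least 200 CPM and non-overlapping intervals), and genes of the fixed lists, up to 8 a list by total UMIs, with all zone genes; other names, such as those of the aerocyte comparison and of KO/WT in the general-richer barcodes, were chosen after their values were seen. Scrublet ran in scanpy 1.11.5; other steps used Python 3.11.15, numpy 2.4.6, scipy 1.17.1 and pandas 2.3.3. Members and lists were chosen with earlier results of these data known.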

Additional observations from a re-analysis of the deposited data

How the results depend on the processing

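The ratio of the KO to the WT share of endothelial barcodes kept its direction and stayed within its counting interval under all 8 other settings. Among these, the setting of at least 3 of the 5 markers left 38 KO and 11 WT barcodes. It kept none of the 7 without Cldn5, Cdh5 or Egfl7. The number of barcodes in the WT library was 21 with a marker sum of at least 3 UMIs and also 21 without the exclusion genes, which gave 1.25% of KO cells; at most 5% mitochondrial UMIs left 26 KO and 8 WT barcodes. Genes called higher and lower in KO numbered 852 and 445 with at least 10 UMIs, and 116 and 24 with at least 50 UMIs. The number of genes measured at these limits was not recorded, so the counts give no shares. Of the 3557 genes measured with at least 20 UMIs, 805 and 485 were called at 1.5-fold, and 660 and 367 with each cell weighted alike. Alternatives added after seeing the data gave 137 and 72 of 1317 measured genes in the unmixed barcodes with Cldn5, Cdh5 or Egfl7. In the unmixed general-richer barcodes they gave 73 and 43 of 884, and without the WT barcode of 15469 UMIs 92 and 49 of 730. The cause of these changes was not tested. Of 238 KO/WT ratios of named genes recomputed, 196 stayed within their interval, 31 moved and 11 changed side of 1. Ratios to other cells of the 25 leading genes moved out of their interval in 289 of 750 cases, with none below 48.0, and thinning moved 40 of 100 shares of barcodes with a UMI out of theirs. Cxcl10 was at 1.13 with at least 3 markers and at 1.12 without the barcodes lacking Cldn5, Cdh5 and Egfl7. Enpp2 was at 2.09, 2.08, 1.30 and 1.39 with at least 3 markers, without those barcodes, also without mixed ones and in the general-richer ones. Without exclusion genes Cxcl2 was at 1.90, Ear2 at 1.45 and the MHC class II median at -0.62. Rgs2 was at 1.75 with 0 Ptprc UMIs and at 2.40 with at most 5% mitochondrial UMIs, where Ctsc was at 1.04. Of 401 list medians 369 stayed the same, 30 moved and 2 changed sign, both for MHC class II, which was at -0.069 without the WT barcode of 15469 UMIs. No paired analysis was possible because each group has 1 library, and for the same reason no library could be left out. The 13 WT barcodes and their 102316 UMIs limit the depth of every comparison between genotypes.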
